A study of Homo sapiens with 4 samples.

Results

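The BCL2 family of apoptosis was described here through 10 genes, found by their symbols among the 28395 rows of the deposited count table: the pro-survival genes BCL2, BCL2L1, MCL1 and BCL2A1, the effector BAX, and the BH3-only genes BCL2L11, PMAIP1, BBC3, BID and BMF. All 10 passed the filter on low counts that left 14841 genes in the test. The cells were A375, a long-established melanoma line of human origin with an activating BRAF mutation, which the labels give as wild type. They were grown in medium with 10% serum and kept for 6 h with 0.01% ozonated olive oil, whose unsaturated fatty acids carry ozonides and peroxides, or for the same time with 0.01% olive oil, with 2 libraries per oil numbered 1 and 2. No untreated cells enter the comparison, so every difference below is between the 2 oils. Whether each library had its own culture is not stated, so p-values here reflect library-to-library spread that may be technical.

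BCL2 family proteins decide whether the outer membrane of mitochondria stays closed. The effectors BAX and BAK form pores through which cytochrome c leaves to activate caspases, the pro-survival proteins bind and restrain them, and the BH3-only proteins, made or activated under stress, bind the pro-survival proteins or the effectors and tip the balance toward death. In melanoma, BRAF signalling through ERK holds down the BH3-only protein BIM, and the pigment cell factor MITF is known to raise BCL2 and BCL2A1.

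Library totals ranged from 22245807 to 27772480 counts. The libraries numbered 2 stood apart from those numbered 1 in both oils, on a first principal component that held 66.4% of the variance, while the second component (21.3%) separated the oils. What a number marks is not given in the labels, so the oils were also set against each other within each number, 1 library with 1 library, as values with no test. The melanocyte factors SOX10 (278 to 361 CPM, counts scaled to a common library total) and MITF (24.2 to 36.1 CPM) were present. However, 3 of the 7 melanocyte lineage markers, PMEL, TYR and DCT, stayed under 1 CPM in all 4 libraries, with TYR at 0. MLANA lay between 0.22 and 1.35 CPM and S100B between 3.32 and 9.02 CPM. Of the keratinocyte, fibroblast and endothelial markers, KRT14 was highest, at 7.91 to 16.4 CPM. The immune markers PTPRC and CD3E were at or near 0, while CD68, which other cells also express in lysosomes, lay between 28.4 and 81.7 CPM.

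Promoter windows are shown for BCL2L1, which had the largest difference between the oils among the 10 genes, and for BAX, because of its repeated motif. The windows are those of RefSeq on GRCh38.p14, 250 bases before to 50 after an annotated start. Of the 10 genes, 9 had 1 or more, all but MCL1. Both strands were searched for the E-box CACGTG, bound by MITF, MYC and related factors, and for the antioxidant response element core TGACNNNGC, bound by NRF2. They were also searched for the AP-1 pattern TGANTCA, with any base in the middle, which is wider than the AP-1 site itself. Among 35116 windows of this length, several per gene where starts differ, 7.26% held the E-box, 13.3% the antioxidant core and 7.71% the AP-1 pattern. BCL2L1 has 2 windows, chr20:31723914-31724213 and chr20:31722819-31723118, both on the minus strand. Capitals mark the antioxidant core in the first of them, and the second held none of the 3 motifs.
BCL2L1 window 1: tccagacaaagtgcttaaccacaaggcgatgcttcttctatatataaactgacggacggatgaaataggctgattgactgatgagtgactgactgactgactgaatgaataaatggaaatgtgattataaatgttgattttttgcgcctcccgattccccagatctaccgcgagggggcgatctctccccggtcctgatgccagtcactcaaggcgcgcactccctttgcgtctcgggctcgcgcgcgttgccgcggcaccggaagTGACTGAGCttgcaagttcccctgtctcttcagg
BCL2L1 window 2: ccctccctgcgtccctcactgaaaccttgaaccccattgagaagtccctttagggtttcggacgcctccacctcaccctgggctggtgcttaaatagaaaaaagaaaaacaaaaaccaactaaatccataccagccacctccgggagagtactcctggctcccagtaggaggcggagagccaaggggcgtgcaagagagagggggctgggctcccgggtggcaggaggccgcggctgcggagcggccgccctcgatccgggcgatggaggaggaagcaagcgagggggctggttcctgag
The BAX window, chr19:48954625-48954924 on the plus strand, held 4 E-boxes, marked in capitals, and 1 antioxidant core that overlaps an E-box. At least 4 E-boxes stood in 5 of the 35116 windows, or 0.0142%. That limit is the count of the BAX window itself, which was picked for its repeats, so the share is a description only.
BAX window: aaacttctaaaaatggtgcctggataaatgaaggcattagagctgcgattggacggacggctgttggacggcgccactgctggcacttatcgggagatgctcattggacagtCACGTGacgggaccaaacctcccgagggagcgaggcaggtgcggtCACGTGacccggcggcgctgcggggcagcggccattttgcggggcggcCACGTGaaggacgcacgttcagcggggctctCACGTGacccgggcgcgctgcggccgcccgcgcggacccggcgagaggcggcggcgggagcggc
Of the other members' windows, that of BBC3 held 1 E-box and 1 match to the AP-1 pattern. Of the 5 BID windows, 2 that overlap each other held the same single E-box. A match says nothing of binding in these cells.

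Between the oils, all 5 BH3-only genes and the pro-survival gene MCL1 were higher with the ozonated oil within both replicate numbers, while BCL2, BCL2L1, BCL2A1 and BAX were lower within both. That is 6 of 10 members higher, where 31.6% of all tested genes were higher within both numbers, and 4 of 10 lower, where 31.1% of all tested genes were. All 10 members thus kept 1 direction in both numbers, against 62.8% of all tested genes. With library totals in place of TMM scaling, BID turned to -0.013 within number 1. The members were chosen with earlier results of these data known, so this count is not independent support. For BCL2A1 and BID neither difference exceeded the error of counting alone, nor did those of BCL2, BAX and BCL2L11 within number 1. With no term for the number in the fit, none of the differences passed the edgeR quasi-likelihood test after Benjamini-Hochberg adjustment over all genes. Each adjusted p by that test was 0.9998, and the share of all tested genes called was 0%. No member had an unadjusted p under 0.05 in that edgeR fit either, against 3.84% of all tested genes. Without the filter on low counts, the same edgeR test gave BCL2L1 an unadjusted p of 0.0359. Limma-voom and the edgeR exact test also called 0 of the 10, with 0% and 0.236% of all tested genes called. DESeq2 called 0 of the 8 members to which it gave an adjusted p (none for BCL2A1 and BMF), and 0.601% of the 10813 genes that had one. Before adjustment, DESeq2 gave BCL2L1 a p of 0.0321. With a term for the number, the edgeR quasi-likelihood test called BCL2L1 alone of the 10 (adjusted p = 9.67e-05). That fit called 5.67% of all tested genes, but the labels do not establish that same-numbered libraries are pairs. The median log2 fold change was 0.088 over the 10 members and 0.0005 over all tested genes. In bulk RNA, fewer cells with a transcript and less of it per cell cannot be told apart.

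**Figure D1:**
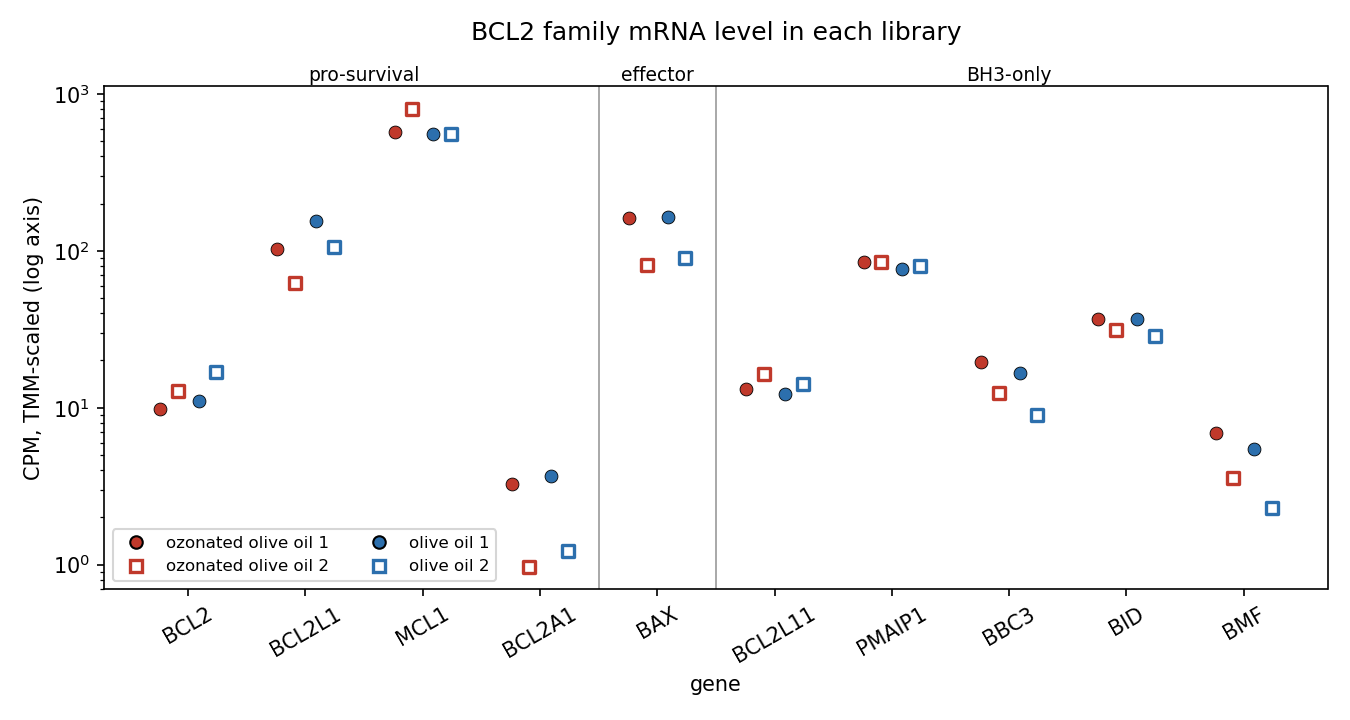
Level of each gene (TMM-scaled CPM, log axis) in the 4 libraries, with ozonated olive oil in red to the left of olive oil in blue, number 1 as filled circles and number 2 as open squares. MCL1 is the gene with the highest CPM, BCL2L1 lies lower in both ozonated libraries, and BCL2A1, BAX, BBC3 and BMF split more by number than by oil.

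BCL2L1 encodes BCL-XL, a pro-survival protein of the outer mitochondrial membrane, and a shorter death-promoting splice form that gene counts do not separate. Its level was 103 and 62.8 CPM in the ozonated olive oil libraries numbered 1 and 2, against 155 and 106 CPM in the olive oil libraries. Both ozonated libraries lay below both olive oil libraries, as for 15.7% of all tested genes, although the ozonated library numbered 1 (103 CPM) came close to the olive oil library numbered 2 (106 CPM). With no term for the number, the fitted log2 fold change was -0.66 ± 0.30 (SE), with a 95% interval of -1.44 to 0.12. The unadjusted p of that edgeR fit was 0.0811. Within number 1 BCL2L1 was 1.51-fold lower and within number 2 it was 1.69-fold lower. It was the single member at least 1.5-fold lower within both numbers, a limit chosen after the values were seen that 1.84% of all tested genes met, and no member was that much higher within both, as 1.41% were. The fitted value had a size that 6.63% of all tested genes exceeded in either direction. It was -1.06 without ozonated olive oil replicate 1, and at the other end -0.35 when replicate 2 of that oil was left out. Leaving out 1 library mixes the oil with the number, and BCL2L1 was also lower in number 2 than in number 1, by -0.71 in ozonated olive oil and -0.55 in olive oil (log2). The gene spans chromosome 20 from 31664452 to 31723989 on the minus strand (GRCh38, GENCODE 29), and 1424 of its exon bases lie opposite exons of the antisense gene ABALON. No strand setting of the counting step is known here, so reads of both may be joined.

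BCL2, the founding pro-survival gene of the family, had 9.78 and 12.9 CPM in the ozonated libraries and 11.1 and 17.0 CPM in the olive oil libraries. The groups overlapped, since the ozonated library numbered 2 stood above the olive oil library numbered 1. The fitted log2 fold change of BCL2 was -0.31 ± 0.29 (SE; 95% interval -1.06 to 0.45), with -0.17 within number 1 and -0.40 within number 2. Of these, the value within number 1 lay inside the counting error of its 230 and 312 counts (half-width of the 95% interval 0.25). Unlike BCL2L1, BCL2 had more transcript in number 2 than in number 1 in both oils.

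MCL1 encodes a pro-survival protein that is made and degraded quickly. Its level was 570.4 and 799 CPM in the ozonated libraries, against 555.8 and 555.8 CPM in the olive oil libraries. The ozonated pair stood wholly above the olive oil pair, as for 15.3% of all tested genes, but the ozonated library numbered 1 exceeded them by 1.03-fold only, and that numbered 2 by 1.44-fold. The fitted log2 fold change was 0.30 ± 0.18 (SE; 95% interval -0.17 to 0.77). It was 0.037 without ozonated olive oil replicate 2 and 0.52 when replicate 1 of that oil was left out, so the ozonated library numbered 2 carried the difference. As for BCL2L1, MCL1 has a short splice form that gene counts do not separate. 

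BCL2A1 encodes BFL-1, a pro-survival protein made in the pigment lineage and in blood cells, and it was scarce here. The ozonated libraries held 77 and 21 counts (3.28 and 0.97 CPM) and the olive oil libraries 104 and 33 counts (3.68 and 1.22 CPM). Both libraries numbered 1 stood above both numbered 2, and the groups overlapped. The fitted log2 fold change of -0.21 ± 0.79 (SE) has a 95% interval of -2.26 to 1.84. The values within the numbers, -0.17 and -0.31, both lay inside counting error. MITF, its known activator, was at 24.2 and 24.5 CPM with the ozonated oil and 36.1 and 25.1 CPM with olive oil.

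BAX, the pore-forming effector, had 161 and 80.8 CPM in the ozonated libraries and 165 and 89.5 CPM in the olive oil libraries. The groups overlapped throughout, and BAX followed the number: number 2 stood 1.99-fold below number 1 in ozonated olive oil and 1.85-fold below it in olive oil. The fitted log2 fold change was -0.074 ± 0.43 (SE; 95% interval -1.19 to 1.04), with -0.036 within number 1 and -0.15 within number 2. The other effectors, which are not among the 10 genes, had values near 0 as well: BAK1 was at 36.5 and 32.5 CPM with the ozonated oil and 33.3 and 30.1 CPM with olive oil (log2 fold change 0.12 ± 0.14, SE), and BOK had a log2 fold change of -0.14 ± 0.31 (SE).

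**Figure D2:**
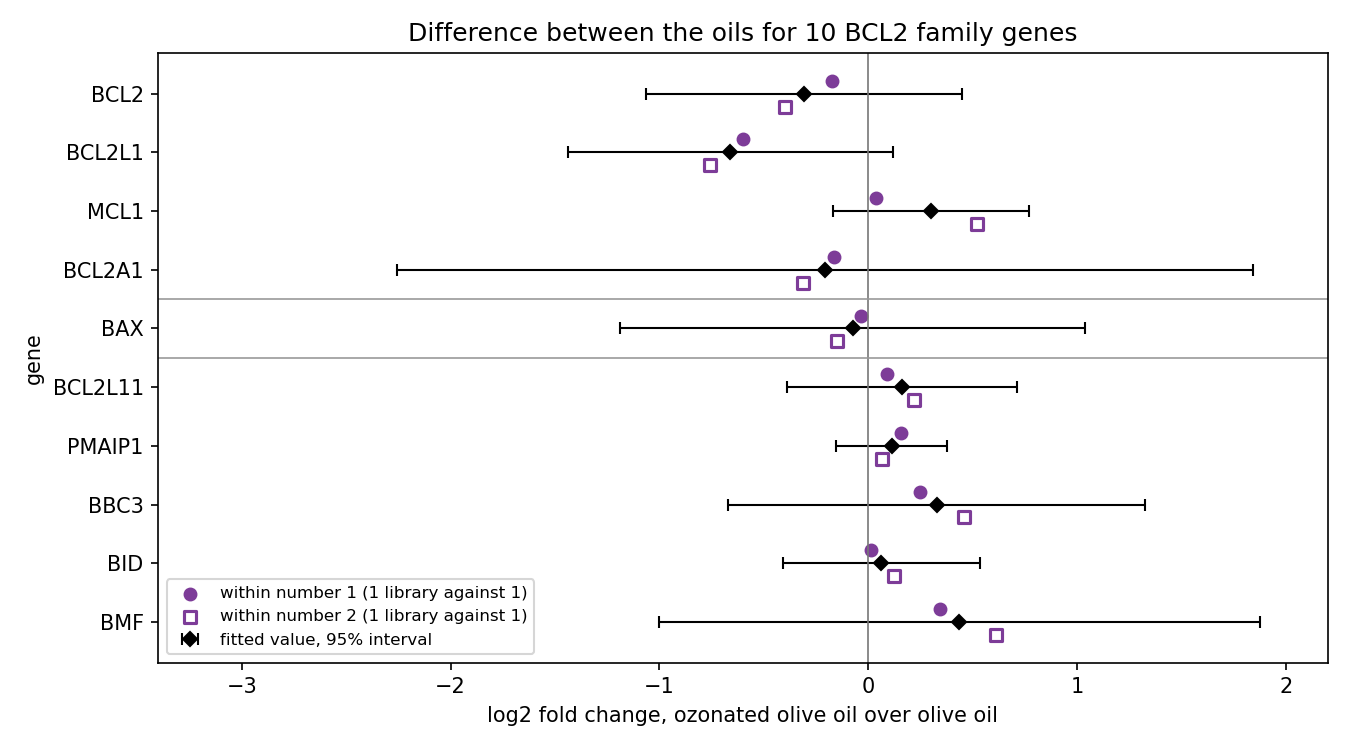
Log2 fold change of ozonated olive oil over olive oil for each gene. Diamonds are fitted values with 95% intervals, circles and squares the differences within number 1 and number 2. The intervals are those of the fit with no term for the number. Every such interval crosses 0, that of BCL2L1 from -1.44 to 0.12. Circle and square fall on the same side of 0 for each of the 10 genes.

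Among the BH3-only genes, BMF and BBC3 had the differences of greatest size. BMF, whose product is held on the cytoskeleton until cells detach or are stressed, had 163 and 77 counts (6.93 and 3.56 CPM) in the ozonated libraries and 154 and 62 counts (5.46 and 2.30 CPM) in the olive oil libraries. Within the numbers BMF was 1.27-fold and 1.53-fold higher with the ozonated oil, but the groups overlapped because number 2 lay below number 1 in both oils. Its fitted log2 fold change was 0.44 ± 0.56 (SE; 95% interval -1.003 to 1.88). BMF shares 461 exon bases with the antisense gene BMF-AS1.

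BBC3 encodes PUMA, which binds every pro-survival protein of the family. It had 19.7 and 12.4 CPM in the ozonated libraries, against 16.5 and 9.02 CPM in the olive oil libraries. As for BMF, the groups overlapped while both numbers gave a higher value with the ozonated oil, by 1.19-fold and 1.38-fold. Over both numbers the fitted value was 0.33 ± 0.39 (SE; 95% interval -0.67 to 1.33). DDIT3 (CHOP) is a stress factor known to act on BBC3 and BCL2L11. DDIT3 had 27.9 and 32.3 CPM with the ozonated oil and 16.1 and 26.3 CPM with olive oil. With no term for the number its fitted value was 0.51 ± 0.27 (SE, unadjusted p = 0.124 by edgeR). With that term it was 0.54 ± 0.13 (SE, adjusted p = 0.0251 by edgeR), though the pairing is not established.

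PMAIP1 encodes NOXA, which binds MCL1 and BFL-1 and speeds the loss of MCL1 protein. Of the 10 genes it varied least over the libraries relative to its level, with 85.2 and 84.5 CPM with the ozonated oil and 76.4 and 80.6 CPM with olive oil. The ozonated pair again stood wholly above the olive oil pair, with a fitted log2 fold change of 0.11 ± 0.10 (SE; 95% interval -0.15 to 0.38). Only within number 1 (0.16) did the difference of PMAIP1 exceed counting error. Of all 10 members, BCL2L1, MCL1, BBC3 and BMF exceeded it within both numbers, a measure of counting alone. The share over all tested genes was not computed, so whether this is common is not known. With high counts a small difference is enough: MCL1 exceeded counting error within number 1 with 0.037 (half-width 0.033). With library totals in place of TMM scaling, MCL1 (0.0097, half-width 0.033) and BMF (0.314, half-width 0.318) fell inside it within number 1.

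BCL2L11 encodes BIM, the BH3-only protein that ERK marks for degradation in BRAF-mutant cells. It had 13.1 and 16.5 CPM in the ozonated libraries and 12.3 and 14.2 CPM in the olive oil libraries, with overlapping groups. For BIM, the fit gave a log2 fold change of 0.16 ± 0.21 (SE; 95% interval -0.39 to 0.71). The GENCODE exons of BCL2L11 share 727 bases with MIR4435-2HG on the opposite strand. BID, whose product caspase 8 cleaves to carry the death receptor signal to mitochondria, had 36.9 and 31.4 CPM with the ozonated oil and 36.5 and 28.8 CPM with olive oil. Fitted over all libraries, BID had a log2 fold change of 0.063 ± 0.18 (SE; 95% interval -0.41 to 0.53), and neither value within the numbers exceeded counting error.

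**Figure D3:**
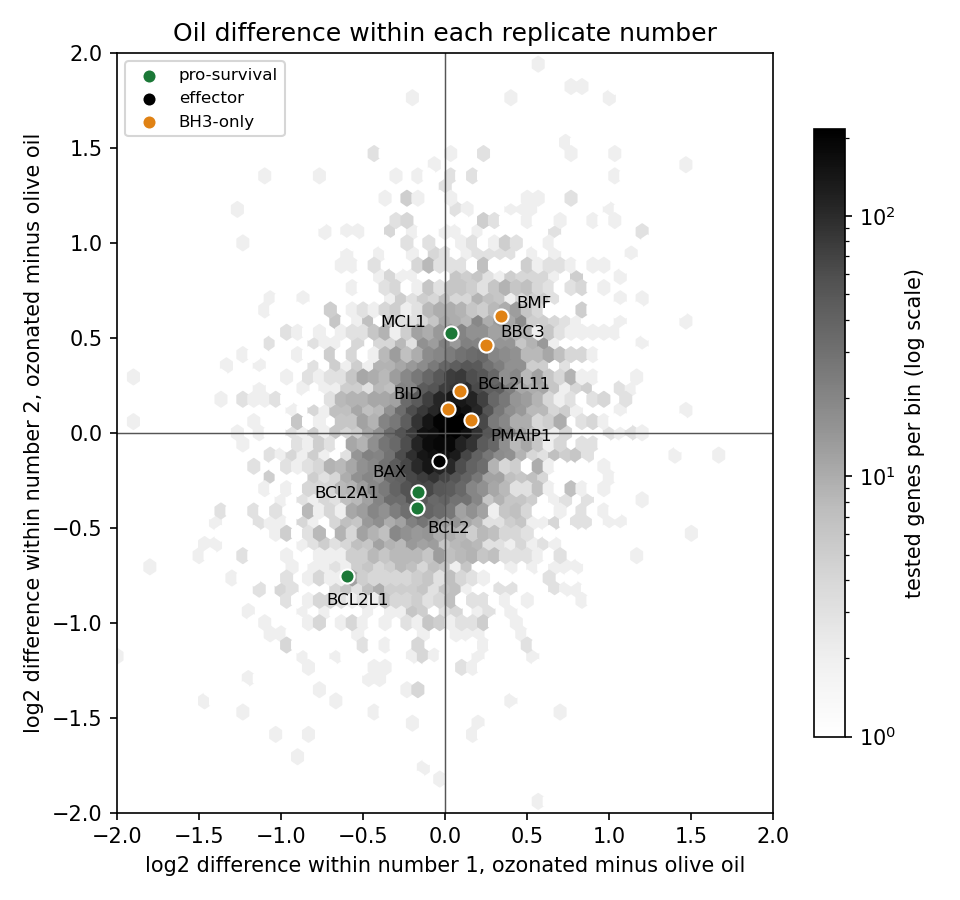
Log2 difference of ozonated minus olive oil within number 1 (x axis) and within number 2 (y axis). Grey bins count all tested genes within the plotted range, and coloured points are the 10 members. BCL2L1 lies at -0.60 and -0.76, toward the lower left edge of the cloud. The BH3-only genes all lie above 0 on both axes, BID (0.014 and 0.12) and BAX near the dense centre.

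The gap between the replicate numbers exceeded the gap between the oils for many members. Both gaps between numbers were larger than both gaps between oils for 5 of 10 members (BCL2A1, BAX, BBC3, BID and BMF), against 31.6% of all tested genes. In both oils, 9 of 10 members moved the same way between the numbers, against 73.3% of all tested genes, and 6 members were lower in number 2 (BCL2L1, BCL2A1, BAX, BBC3, BID and BMF), where 36.4% of all tested genes were. BCL2A1 had the largest such gap among the members, with log2 differences of -1.67 in ozonated olive oil and -1.53 in olive oil, and BMF had -0.95 and -1.22. BCL2 and BCL2L11 were higher in number 2 in both oils, as was MCL1, for which the gap in olive oil was 0.0001. The fit has no term for the number and counts this spread as error. When 1 library was left out, the oils no longer held the same numbers and the fitted value of 7 members changed sign. It became 0.036 for BCL2 without olive oil replicate 2, and -0.014 for BCL2L11 without ozonated olive oil replicate 2. Without ozonated olive oil replicate 2 it was 0.42 for BCL2A1 and 0.34 for BAX, and without olive oil replicate 1 it was 0.79 and 0.43 for the same genes. Without ozonated olive oil replicate 1 it was -0.039 for BBC3, -0.059 for BID and -0.12 for BMF, and without olive oil replicate 2 it was -0.042, -0.096 and -0.053 in that order.

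**Figure D4:**
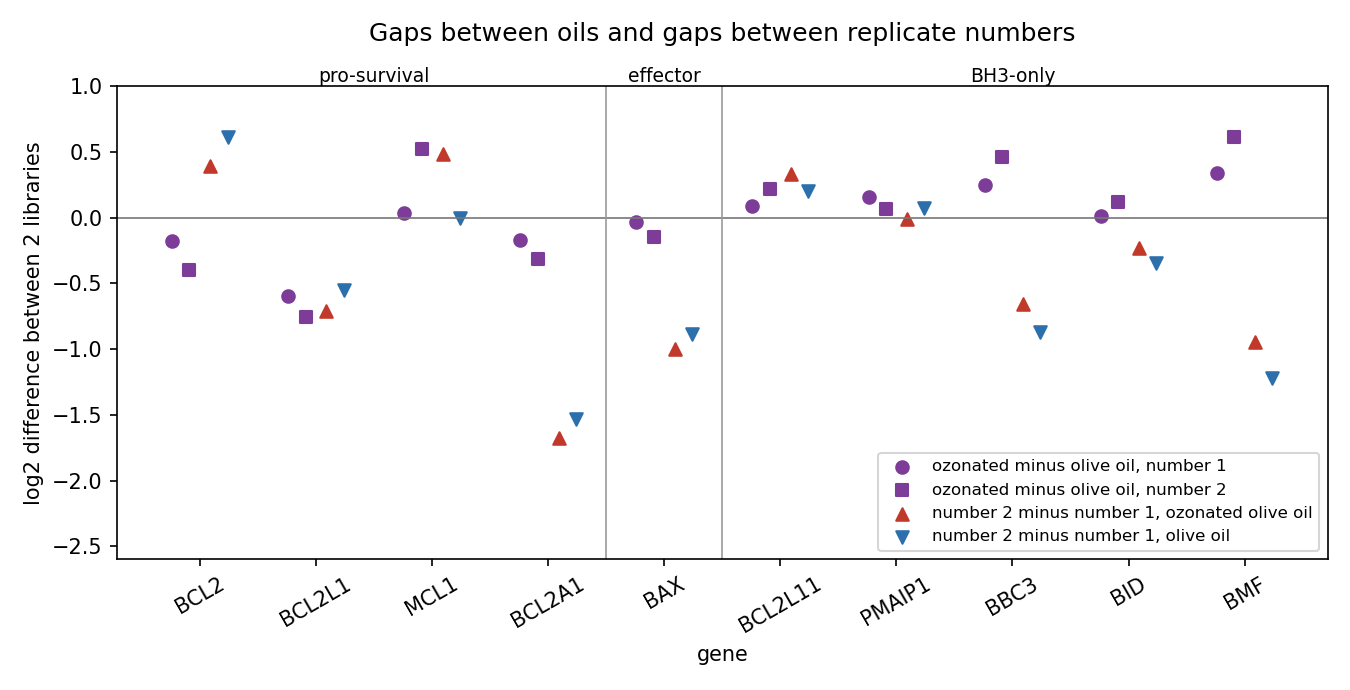
Log2 differences between pairs of libraries for each gene: ozonated minus olive oil within each number (purple), and number 2 minus number 1 within ozonated olive oil (red) and olive oil (blue). For BAX, BCL2A1, BBC3 and BMF the gaps between numbers, from -0.66 to -1.67, exceed the gaps between oils. For BCL2L1 both kinds are of like size.

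On a scale of CPM per kilobase of annotated exon, which allows genes to be compared, MCL1 had the highest level of the 10 in every library, with 157 ± 37.0 CPM per kilobase in ozonated olive oil and 127 ± 0.0064 in olive oil (SD, n = 2 each). BAX (31.2 to 63.9 over the 4 libraries), PMAIP1 (34.2 to 38.1) and BCL2L1 (18.9 to 46.8) came next, with ranges that overlapped, so their order is not set. BID followed at 6.48 to 8.30 and BBC3 at 2.84 to 6.18 CPM per kilobase, each without overlap with its neighbour above. BCL2L11 (1.85 to 2.48), BCL2A1 (0.89 to 3.38), BCL2 (0.83 to 1.44) and BMF (0.42 to 1.27) were lowest and overlapped as neighbours, and BCL2A1 also reached into the range of BBC3. On this scale the pro-survival genes thus stood at both ends of the order. With the longest transcript as length, all 10 kept their rank, but BAX, whose exon union is long against its longest transcript, lay at 59.5 to 122 CPM per kilobase. That no longer overlaps PMAIP1 (39.2 to 43.7), while BCL2L1 (24.1 to 59.5) still touched it, and BCL2A1 no longer reached BBC3.

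The other genes of the pathway were taken from 11 lists with 65 entries written from textbook knowledge, of which 60 were tested. With no term for the number in the fit, none passed the edgeR test. Unadjusted, 3 had a p under 0.05 in that fit (BNIP3L, BAG1 and BIRC5), where 3.84% of all tested genes did. With a term for the number, the edgeR test called 7 of the 60, 5 higher and 2 lower, where it called 5.67% of all tested genes. The labels do not establish that same-numbered libraries are pairs. Fitted values below have no term for the number unless stated. Within both numbers 24 of 60 were higher and 16 lower, where 31.6% and 31.1% of all tested genes were, and their median log2 fold change was 0.0014. The 5 not tested were BCL2L10 and BIRC7 (0 counts in every library), HRK, BCL2L14 and BAG6. For counting error alone, 0 counts allow up to 0.108 to 0.135 CPM, or 3 counts of the total. BAG6, which most cells express, was itself at 0 to 45 counts, so a gene listed at 0 here is not shown to be unexpressed. Among other pro-survival and BH3-only genes, BCL2L2 (BCL-W) had 41.1 and 43.3 CPM with the ozonated oil and 42.1 and 40.9 CPM with olive oil, and BAD had a log2 fold change of -0.05 ± 0.23 (SE). BIK lay at 0.85 and 0.83 CPM with the ozonated oil and 2.27 and 0.56 CPM with olive oil, with opposite signs within the numbers.

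The atypical members BNIP3 and BNIP3L, which are known as hypoxia-induced receptors for the removal of mitochondria more than as triggers of death, had the largest fitted values of the 60 genes. BNIP3L stood at 144 and 93.1 CPM with the ozonated oil and at 72.3 and 40.0 CPM with olive oil, without overlap (log2 fold change 1.08 ± 0.35, SE, unadjusted p = 0.0290 by edgeR). BNIP3 stood at 357 and 172 CPM with the ozonated oil and at 195 and 79.3 CPM with olive oil (0.95 ± 0.54, SE). With a term for the number, the log2 fold change was 1.11 ± 0.090 (SE) for BNIP3L and 0.99 ± 0.081 (SE) for BNIP3. The adjusted p of that edgeR fit was 1.20e-06 for each. BAG1, a partner of BCL2 and of heat shock chaperones, had 88.7 and 86.6 CPM with the ozonated oil and 71.3 and 71.5 CPM with olive oil (0.30 ± 0.10, SE, unadjusted p = 0.0330 by edgeR). The mitochondrial channel gene VDAC1 had 0.10 ± 0.10 (SE). TMBIM6, which encodes BAX inhibitor-1 of the endoplasmic reticulum membrane and was the most abundant of the same list in CPM, had 0.02 ± 0.10 (SE).

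Downstream of the family, APAF1, the scaffold of the apoptosome, had a log2 fold change of 0.20 ± 0.15 (SE), cytochrome c (CYCS) -0.09 ± 0.10 (SE) and ENDOG -0.23 ± 0.23 (SE). Of 9 caspase and nuclease genes, 2 were higher and 3 lower within both numbers, against 31.6% and 31.1% of all tested genes. CASP2 had -0.20 ± 0.14 (SE). Among inhibitors of apoptosis proteins, BIRC5 (survivin), which is also a mitotic gene, had 108 and 103 CPM with the ozonated oil and 126 and 137 CPM with olive oil (-0.32 ± 0.11, SE, unadjusted p = 0.0332 by edgeR), and BIRC6 had 0.19 ± 0.17 (SE). BIRC3 (cIAP2), named here after its values were seen, had the fitted value of greatest size in that list, -0.70 ± 1.24 (SE). It stood at 42.0 and 9.21 CPM with the ozonated oil and 76.9 and 6.27 CPM with olive oil, a split by number with opposite signs within the numbers (-0.87 and 0.55).

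In the death receptor arm, the TNF receptor gene TNFRSF1A had 165 and 147 CPM with the ozonated oil and 130 and 129 CPM with olive oil (0.27 ± 0.11, SE), and RIPK1 had 35.1 and 29.0 CPM with the ozonated oil and 41.6 and 39.1 CPM with olive oil (-0.33 ± 0.15, SE). The TRAIL receptor gene TNFRSF10B had 0.19 ± 0.24 (SE). All 8 genes of that list were lower in number 2 than in number 1 in both oils, where 36.4% of all tested genes were. Among enzymes that act on the proteins of the family, the deubiquitinase USP9X, which stabilises MCL1, had 0.30 ± 0.16 (SE), the MCL1 ligase HUWE1 0.12 ± 0.14 (SE) and TRIM17 0.44 ± 0.46 (SE) at 0.64 to 1.02 CPM. Of 10 transcription factors, 4 were higher and 3 lower within both numbers, where 31.6% and 31.1% of all tested genes were. ATF4, the most abundant in CPM, had 334 and 512 CPM with the ozonated oil and 238 and 476 CPM with olive oil.

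**Figure D5:**
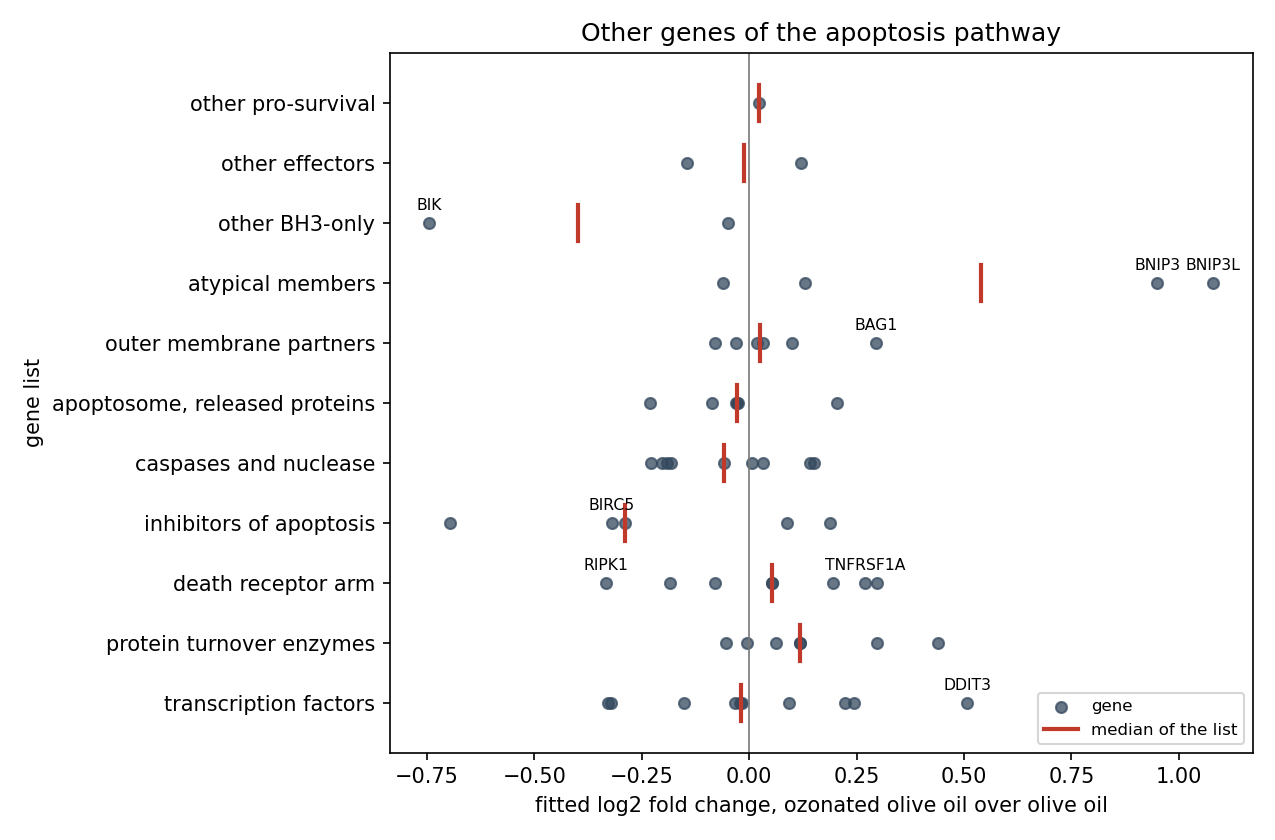
Fitted log2 fold change of ozonated olive oil over olive oil for the 60 tested genes of 11 pathway lists, 1 point per gene, with the list median as a red bar. BNIP3L (1.08) and BNIP3 (0.95) stand to the right of all others, and most genes lie near 0.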

How the data were processed

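The authors deposited raw counts per gene, whole numbers keyed by Entrez gene ID with Ensembl ID and symbol, 1 column per library. Per the labels' protocols, RNA was taken with Tri reagent and a strand-marking (directional) library kit was used. The submitters' processing notes name hg38 and, without saying what each did, HISAT2 2.1.0, SAMtools 1.9, StringTie 1.3.4d, bedtools 2.27.1, edgeR, FastQC 0.11.7 and bcl2fastq. Which tool counted reads, with which annotation and strand setting, is not given in the sources used here.

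The fit was made with edgeR 4.0.16 in R 4.3.3. Low genes were removed by filterByExpr (by group), totals were scaled by TMM (factors 0.972 to 1.017) and the oils compared, with no block, by its two-sided quasi-likelihood test, whose p-values were adjusted by Benjamini-Hochberg over all 14841 tested genes (threshold 0.05). SEs were derived as the fitted value over the root of F, and 95% intervals from the t distribution of the fit. CPM use the TMM-scaled totals. Differences within a number use log2 CPM with a prior count of 2. Counting error is the 95% interval of a ratio of 2 counts and covers counting only, since no molecular identifiers are named. With 2 libraries per group an exact permutation test of a single value cannot go below p = 0.333, so none is given. Rows without a symbol (617, at most 0.0494% of a library's counts) stayed in, as they carry gene IDs.

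The 10 members and the pathway lists were chosen with earlier results of these data known, so no list was tested. All members are named, and of each other list the 2 genes with the smallest p and the 1 with the highest level, except for genes not reported here; the genes not tested are named beside them. Coordinates and exon lengths are those of GENCODE 29 on GRCh38, the build of hg38. The test was checked on simulated data, which does not show its power in these libraries. Alternatives were other scalings and filters, DESeq2 1.42.0, limma-voom (limma 3.58.1), the edgeR exact test, the number as a block and each library left out.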

Additional observations from a re-analysis of the deposited data

How the results depend on the processing

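Under other scalings, other filters and other tests, the log2 fold change of each of the 10 members kept its sign and its side of the threshold, except with the replicate number as a block; DESeq2 gave no adjusted p for BCL2A1 and BMF. The correlation over genes of the deviations of same-numbered libraries was 0.672, but with 2 numbers and no label that says what a number marks, the pairing is not established. With the replicate number as a block, edgeR called 841 genes (5.67% of those tested), 468 higher and 373 lower. Among them was 1 of the 10 members, BCL2L1, with -0.68 ± 0.084 (SE, adjusted p = 9.67e-05), and MCL1 had 0.28 ± 0.085 (SE, adjusted p = 0.0675). It also called 7 of the other pathway genes, 5 higher (BNIP3, BNIP3L, DDIT3, ATF4 and USP9X) and 2 lower (BIRC2 and BIRC5), named for that call. DESeq2 called 65 genes and the edgeR exact test 35, with no member among them. With each library left out in turn, from 0 to 4 genes and 0 members were called, in fits where the oils no longer hold the same numbers. Log2 fold changes then ranged from -0.58 to 0.036 for BCL2, -1.33 to 0.79 for BCL2A1, -0.66 to 0.43 for BAX, -0.014 to 0.32 for BCL2L11, -0.042 to 0.83 for BBC3, -0.096 to 0.24 for BID and -0.12 to 1.19 for BMF, while BCL2L1, MCL1 and PMAIP1 kept their sign. Depth limits BCL2A1 and BMF most, with 21 to 163 counts per library.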

Other observations

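Ratios of levels per kilobase within a library, a choice made after the values were seen, compare the mRNA of members without the library scaling. No protein was measured. The size of a ratio depends on the length used, here the exon union, but its comparison between libraries does not. The ratio of BAX to BCL2L1 was 2.01 and 1.65 in the ozonated olive oil libraries numbered 1 and 2, and 1.36 and 1.08 in the olive oil libraries, without overlap. The ratio of MCL1 to BCL2L1 was 4.22 and 9.65 in the ozonated libraries and 2.71 and 3.97 in the olive oil libraries, also without overlap. The ratio of BCL2L11 to BCL2L1 was 0.0636 and 0.131 with the ozonated oil and 0.0394 and 0.0665 with olive oil, where the groups overlap. These 3 ratios share BCL2L1 as denominator and are not independent. The ratio of PMAIP1 to MCL1 was 0.292 and 0.207 with the ozonated oil and 0.269 and 0.283 with olive oil. The ratio of BAX to BCL2 was 74.9 and 28.6 with the ozonated oil and 68.0 and 23.99 with olive oil, a split by number. None of these ratios was tested, and how often ratios of other genes keep the oils apart was not computed. For levels of single genes, both ozonated libraries stood above both olive oil libraries for 15.3% of all tested genes, and below both for 15.7%. HRK, a BH3-only gene known mainly from neurons, held 2 and 0 counts in the ozonated libraries and 6 and 9 counts in the olive oil libraries. BAG6 held 45 and 2 counts in the ozonated libraries and 0 and 2 in the olive oil libraries. Neither gene passed the filter on low counts, so neither was tested.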
